A study of Mus musculus with 10 samples.

Results

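Pools of vagal sensory neurons that carried the Trpv1-tdTomato reporter were compared with pools that lacked it, to ask which genes go with Trpv1 status in every pool, whichever ganglion the neurons came from. The comparison used 6 of the 10 RNA sequencing samples of the study, chosen by their labels: 2 pools of tdTomato-positive nodose neurons, 2 of tdTomato-positive jugular neurons and 2 of tdTomato-negative nodose neurons. All 6 came from mice in which Cre recombinase from the Trpv1 gene switches on tdTomato at the ROSA26 locus, so that a red neuron expresses Trpv1 or did so at an earlier stage. Neurons were dissociated, picked by hand under a fluorescence microscope from the caudal (nodose) or rostral (jugular) end of the ganglion complex, and pooled, with 30 cells in each positive pool and 15 in each negative pool. The neurons came from 2 mice, and the labels do not tie a pool to a mouse, so p-values measure only the spread between these pools, which may be technical. There were no Trpv1-negative jugular pools, so both sets of positive pools were set against the same nodose negative pools, and for the jugular pools ganglion and Trpv1 status cannot be told apart. Cell number per pool also goes with Trpv1 status, and fewer cells that express a gene and less RNA of it per cell cannot be told apart in pooled RNA. The other 4 samples were pools of 14 to 16 wild-type neurons that had responded to capsaicin in a calcium assay. The purinergic agonist α,β-methylene-ATP was also applied before picking, and the nodose neurons had responded to it while the jugular ones had not. These pools were processed at another core, and they are used below as levels beside the comparison.

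TRPV1 is the cation channel that heat, protons and capsaicin open, and it marks most of the unmyelinated C-fibre nociceptors of the vagus nerve. Such neurons typically carry peptides such as calcitonin gene-related peptide, while neurons with myelinated axons carry more heavy neurofilament and the channels of fast conduction. Nodose neurons arise from an epibranchial placode and jugular neurons from the neural crest.

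The total count per pool was 148452506 to 167704327. Counts were detected for 12153 to 12615 genes in the positive pools and for 12770 and 13029 genes in the negative pools. The row that collects ribosomal RNA reads, Rn45s, held 8.537% and 10.34% of the counts in the nodose positive pools and 2.652% to 3.384% in the other pools. All levels below are normalised read counts in CPM, after division by size factors, and 3 counts, taken as the floor of detection, were 0.0148 to 0.0204 CPM on this scale. Pan-neuronal markers were at similar summed levels in the positive (13100 to 17260 CPM) and negative pools (13440 and 14660 CPM). Glial markers, led by Apoe, were present in all pools, at a summed 3880 to 5319 CPM in the positive and 3791 and 4437 CPM in the negative pools. Of 12 tested members 1, Sox10, was higher in both negative pools than in all positive pools, as were 8.77% of all genes tested. Sox10 was at 12.9 and 2.69 CPM in the negative and at most 0.2375 CPM in the positive pools, and did not reach 10 CPM in both pools of a group. The 5 tested markers of non-neural cells summed to 0.323 to 39.6 CPM in the positive and 4.885 and 7.291 CPM in the negative pools, and none reached 10 CPM in both pools of a group.

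Trpv1 itself (chromosome 11, 73234292 to 73261242 of GRCm38, plus strand) was measured at 267.3 and 158.6 CPM in the nodose positive pools, at 22.9 and 33.7 CPM in the jugular positive pools, and at 0.0443 and 0.0400 CPM in the negative pools. The negative pools held 9 and 8 counts of it, so the labels and the Trpv1 level were the same way round in all 6 pools. The mean level was 2860-fold higher in the positive pools, with a log2 fold change of 11.36 ± 1.8 (SE). The nodose positive pools were both above the jugular ones, by 2.86 on the log2 scale, but the test of that difference missed the threshold (adjusted p = 0.285, edgeR). The selection of the cells rests on Trpv1, so this gene is a check of the labels and not a result.

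The stretch of 250 bases upstream of the start site was searched on both strands for 4 motifs: TAATTA (the core of many homeodomain sites), TGTGGT (the core bound by RUNX factors), CANNTG (the E-box) and TGACGTCA (the cyclic AMP response element). Matches of different motifs may overlap and were counted apart. Upstream sequence was found in RefSeq (GRCm38.p6) for 48 of the 65 genes examined by name. TGTGGT was present in 8 of these 48, against 14% of all 32851 promoters in the table, and TAATTA in 3, against 4.84%. CANNTG was present in 29 of the 48, against 66.2% of all, and TGACGTCA in 0, against 1.55%. 4 stretches are printed below, 5′ to 3′ on the strand of the gene and ending at the base before its start site. Trpv1 defines the pools, Nmb and S100a6 were also higher in all positive pools and share its RUNX core, and Gpr65 gave the smallest p among the genes higher in the negative pools. Capitals mark TGTGGT or its complement in the first 3 and TAATTA in Gpr65, and the match in Trpv1 starts 50 bases before the start site.
Trpv1, chr11:73233899-73234148, plus strand: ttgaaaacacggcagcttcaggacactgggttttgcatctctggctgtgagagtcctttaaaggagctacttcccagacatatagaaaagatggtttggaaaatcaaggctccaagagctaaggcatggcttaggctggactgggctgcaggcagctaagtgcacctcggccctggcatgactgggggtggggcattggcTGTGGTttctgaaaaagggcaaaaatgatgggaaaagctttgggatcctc
Nmb, chr7:80905063-80905312, minus strand: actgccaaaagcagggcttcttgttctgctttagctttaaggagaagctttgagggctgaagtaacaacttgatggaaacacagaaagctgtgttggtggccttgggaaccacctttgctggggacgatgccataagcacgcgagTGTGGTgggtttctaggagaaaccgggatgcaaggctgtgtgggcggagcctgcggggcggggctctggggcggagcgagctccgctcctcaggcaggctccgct
S100a6, chr3:90612644-90612893, plus strand: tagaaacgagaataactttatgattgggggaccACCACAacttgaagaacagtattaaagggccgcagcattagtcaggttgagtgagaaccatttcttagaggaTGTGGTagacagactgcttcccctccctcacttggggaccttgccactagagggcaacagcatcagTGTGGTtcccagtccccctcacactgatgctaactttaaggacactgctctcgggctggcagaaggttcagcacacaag
Gpr65, chr12:98268385-98268634, plus strand: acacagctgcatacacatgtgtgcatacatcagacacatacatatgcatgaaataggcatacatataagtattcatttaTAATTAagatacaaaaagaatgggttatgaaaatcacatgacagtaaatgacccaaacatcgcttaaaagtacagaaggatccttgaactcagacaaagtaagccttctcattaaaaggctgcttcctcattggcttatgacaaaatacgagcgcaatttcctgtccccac
The gene for the RUNX factor of nociceptors, Runx1, was at 27.2 and 14 CPM in the nodose positive pools, 62.0 and 73.0 CPM in the jugular positive pools and 6.42 and 10.1 CPM in the negative pools. Its positive pools were thus all above its negative pools, with a log2 fold change of 2.35 ± 1.26 (SE). Besides Trpv1, Nmb and S100a6, TGTGGT was found upstream of Cdh10, Runx3, Spp1 and Unc5c, higher in both negative pools, and of Etv1, which overlapped. The motif was thus present on both sides. The share of promoters with a TGTGGT match was close to that of all promoters, and a match of letters is not evidence of binding.

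With Trpv1 status as the only term, edgeR's quasi-likelihood test called none of the 12314 genes tested in either direction (0% of them) where a call needed an adjusted p not above 0.1, a 2-fold change or more, and 10 CPM in both pools of a group (a level that 7137 genes, 58%, reached). The smallest adjusted p was 0.486. At an unadjusted p under 0.05 there were 445 genes higher in the positive pools (3.61% of those tested) and 383 higher in the negative pools (3.11%). This fit treats nodose and jugular positive pools as one group, and the difference between the ganglia enters the spread. Where nodose positive, jugular positive and negative pools were 3 groups and the mean of the positive groups was compared with the negative one, edgeR called 12 genes higher in the positive pools (0.0975%) and 14 higher in the negative pools (0.114%). DESeq2 called 298 genes higher in the positive pools (1.88% of 15854) and 83 higher in the negative pools (0.524%). It gave no adjusted p for 4103 of the 15854 genes, so these could not be called. Statements of a gene being higher below therefore refer to the pools themselves: a gene does not overlap when all 4 positive pools lie on one side of both negative pools. This held for 1052 genes higher in the positive pools (8.54%) and 1080 higher in the negative pools (8.77%). The gap was at least 2-fold for 216 genes on the positive side (1.75%) and 485 on the negative side (3.94%), and the sides are not comparable, since one needs 4 high pools and the other 2. Of the genes DESeq2 called, 194 higher in the positive pools (1.22%) and all 83 higher in the negative pools did not overlap. With 4 pools against 2, an exact two-sided permutation test cannot give a p below 0.133, so the lack of overlap is not a test.

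Of the 26 genes called in the fit with 3 groups, 12 did not overlap. Higher in the positive pools were Trpv1, Calca, S100a6, Tmem176b, Fxyd2, Sncg, Stmn1, Tmem176a and Tagln2 (0.0731% of the genes tested), and higher in the negative pools were Gpr65, Tes and Unc5c (0.0244%). All 14 others overlapped, and each also differed between nodose and jugular positive pools. Among the 12, the difference between the ganglia passed an adjusted p of 0.1 for 5 genes (Calca, S100a6, Tmem176b, Tes and Unc5c) and missed it for 7. DESeq2 called 10 of the 12, all but Tes and Unc5c.

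Calca, which encodes calcitonin gene-related peptide alpha, had the smallest adjusted p of the fit with 3 groups. It was at 306.4 and 490.7 CPM in the nodose positive pools, 3754 and 3947 CPM in the jugular positive pools and 0.851 and 1.04 CPM in the negative pools. All positive pools were far above both negative pools, and the jugular pools were the highest. The log2 fold change was 10.28 (adjusted p = 0.000511, edgeR with 3 groups), and nodose minus jugular was -3.32 (adjusted p = 0.00948). Its neighbour Calcb, the gene of the beta form of the peptide, showed 171 and 166 CPM, then 1186 and 1172 CPM, against 0.684 and 10.8 CPM in the negative pools. Nmb, which encodes neuromedin B, a peptide of itch and irritation signalling, was at 216 and 66.5 CPM in the nodose, 549 and 494 CPM in the jugular and 5.76 and 21.4 CPM in the negative pools. Galanin (Gal) did not overlap either, at 99.5 to 168 CPM in the positive and 74.3 and 18.5 CPM in the negative pools. The negative pools thus had lower levels of all 4 peptide genes, but the gap for galanin was smaller than the spread of its negative pools.

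Of the TRP channels tested other than Trpv1, 4 of 11 were higher in all positive pools (3 under TMM scaling) and 0 in both negative pools. Their median log2 fold change was 1.18, the value of Trpm4, against 0.136 over all genes, and 5 of the 11 had a negative log2 fold change. Trpa1, the channel for irritants such as mustard oil, was at 86.8 and 119 CPM in the nodose positive pools and 8.92 and 43.1 CPM in the jugular positive pools. It had 5 and 3 counts in the negative pools, 0.0246 and 0.0150 CPM, and its log2 fold change was 11.53 ± 1.99 (SE), with an unadjusted p of 0.000508 in edgeR. Trpc6 was mainly a jugular signal, at 53.0 and 34.4 CPM there, 1.24 and 1.99 CPM in the nodose positive pools and 0.689 and 0.0901 CPM in the negative pools. Trpm4, a channel opened by intracellular calcium, was at 12.1 to 36.0 CPM in the positive and 9.39 and 11.5 CPM in the negative pools, and it overlapped under TMM scaling. The cold channel Trpm8, with 2 and 4 counts in the nodose positive and 0 in the negative pools, did not reach 10 CPM in both pools of any group. Of the 5 C-fibre sodium channel genes, Scn11a, the gene of NaV1.9, did not overlap, at 130 to 259 CPM in the positive and 73.8 and 99.2 CPM in the negative pools. Scn10a, the gene of NaV1.8, was at 177 to 432 CPM in the positive and 130 and 207 CPM in the negative pools, and these ranges overlapped.

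7 other genes were called higher in the positive pools by edgeR with 3 groups and did not overlap. Stmn1, which encodes the microtubule regulator stathmin, was at 1234 and 1686 CPM in the nodose, 2078 and 1803 CPM in the jugular and 414 and 376 CPM in the negative pools. It changed by 2.02 on the log2 scale (adjusted p = 0.0327, edgeR with 3 groups), and nodose minus jugular was -0.46 (adjusted p = 0.439). Fxyd2, the gamma subunit of the sodium pump, was at 2280 and 1731, 3642 and 3187, and 671 and 565 CPM in the same order, a log2 fold change of 2.01 (adjusted p = 0.0252). Sncg, which encodes gamma-synuclein, was the most abundant of these genes. Its levels were 7928 and 7952 CPM in the nodose, 11480 and 10650 CPM in the jugular and 4527 and 3749 CPM in the negative pools, a log2 fold change of 1.11 (adjusted p = 0.0252). S100a6, which encodes a calcium-binding protein, and Tagln2, an actin-binding protein, were also higher in all positive pools and highest in the jugular ones. S100a6 was at 739 and 625 CPM in the nodose, 2522 and 1964 CPM in the jugular and 173 and 163 CPM in the negative pools. The membrane proteins Tmem176a and Tmem176b, whose genes are neighbours, went the other way between the ganglia. Tmem176b was at 1280 and 1221 CPM in the nodose, 157 and 150 CPM in the jugular and 69.4 and 71.5 CPM in the negative pools, and nodose minus jugular was 2.97 (adjusted p = 0.00948).

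Some genes were under 10 CPM in both negative pools, 2 of them near the floor there, and above 10 CPM in all positive pools. Vamp8, a SNARE protein of secretory vesicles, was at 24.3, 52.1, 60.2 and 61.0 CPM in the positive pools and at 0.0197 and 0.0200 CPM in the negative pools. DESeq2 called it (adjusted p = 4.17e-35), while edgeR did not with either design. The water channel gene Aqp1 was at 34.3 and 22.6 CPM in the nodose, 11.9 and 49.7 CPM in the jugular and 0 and 0.00501 CPM in the negative pools. The histone deacetylase gene Hdac1 was at 36.2, 81.3, 72.5 and 115 CPM in the positive and 2.07 and 0.490 CPM in the negative pools. For Aqp1 the nodose pools lay between the jugular pools, for Hdac1 the ranges of the ganglia overlapped, and for Vamp8 both nodose pools were below both jugular pools.

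**Figure D1:**
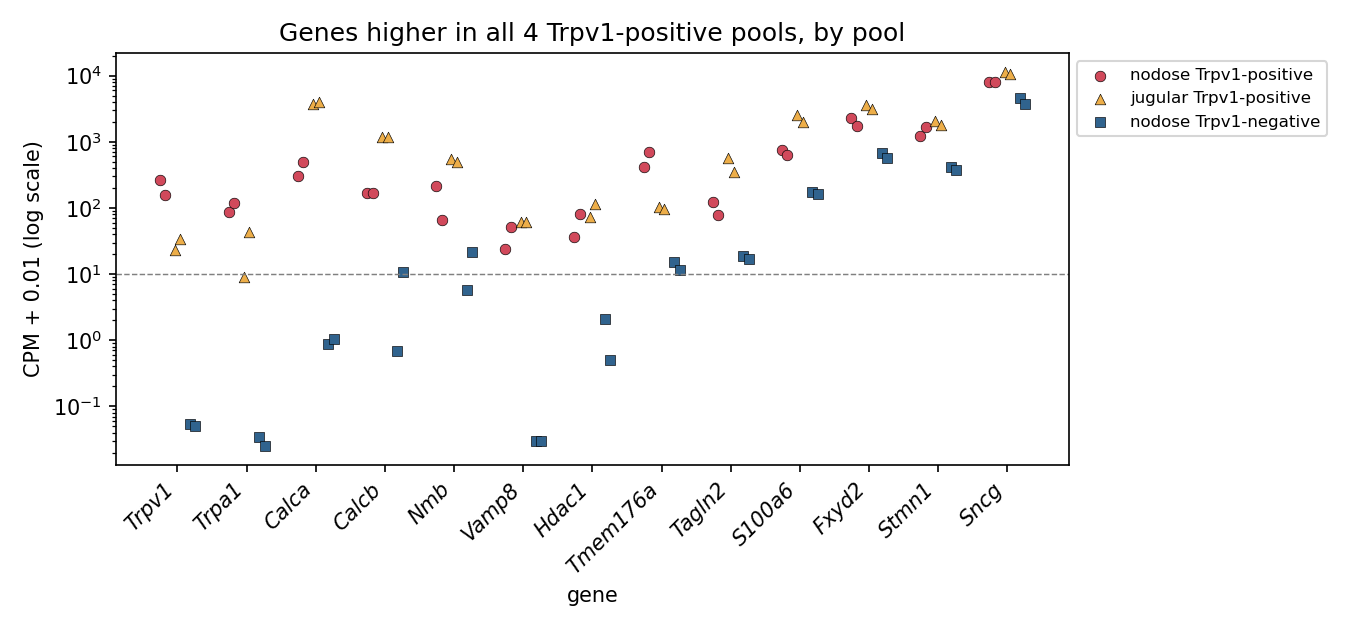
CPM plus 0.01 on a log axis for 13 genes in each of the 6 pools, with 2 points per group (red circles nodose Trpv1-positive, yellow triangles jugular Trpv1-positive, blue squares nodose Trpv1-negative); the dashed line is at 10 CPM. In every gene the 4 positive points lie above both blue squares, by the most for Trpv1, Trpa1, Vamp8 and Calca and by the least for Sncg.

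Gpr65, the receptor for extracellular protons that marks one class of vagal neurons of the gut, had the smallest unadjusted p of all genes in the test of Trpv1 status (7.21e-05, edgeR). It was at 51.9 and 89.6 CPM in the negative pools and at 0.0340, 0.0330, 0.0166 and 0.0211 CPM in the positive pools. Its level was 2700-fold lower on average in the positive pools, and the ganglia did not separate (nodose minus jugular 0.75 on the log2 scale, adjusted p = 0.901). Its log2 fold change was -11.49 in the fit with 3 groups (adjusted p = 0.0827). Kcnk1, a two-pore potassium channel, showed the same pattern at 96.8 and 32.0 CPM in the negative pools and at most 0.0422 CPM in the positive ones. Edn3, the gene of endothelin 3, was at 28.9 and 13.4 CPM, and Penk, which encodes the enkephalin precursor, at 51.6 and 25.9 CPM in the negative pools, and both were at most 0.0204 CPM in the positive pools. The orphan nuclear receptor gene Esrrg, a marker of proprioceptors, was at 25.7 and 25.9 CPM in the negative pools and 0 to 0.0211 CPM in the positive ones. Cdh10, a cadherin, and Fgf14, which modulates sodium channels, were at 19.3 to 27.1 CPM in the negative pools and at 0 in 3 of the 4 positive pools.

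P2ry1, the ADP receptor gene that marks a class of vagal airway neurons, was at 88.2 and 97.6 CPM in the negative pools. Its positive pools differed by ganglion, at 0.0476 and 1.02 CPM in the nodose and 16.6 and 27.4 CPM in the jugular pools, and all were below the negative pools. Tes, which encodes the LIM protein testin, was at 117 and 97.9 CPM in the negative, 34.8 and 51.1 CPM in the nodose positive and 0.0609 and 0.0475 CPM in the jugular positive pools. The netrin receptor gene Unc5c had the same order, at 111 and 150 CPM, then 26.4 and 87.6 CPM, then 0.0277 and 0.0475 CPM. For both, most of the difference from the negative pools was in the jugular pools. Atp2b2, a calcium pump of the plasma membrane, was at 73.9 and 62.1 CPM in the negative and at most 0.581 CPM in the positive pools.

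Markers of large, myelinated neurons formed the list with the most members on the negative side. Of 13 tested, 6 were higher in both negative pools and 0 in all positive pools, with a median log2 fold change of -1.53. The list summed to 1809 and 2357 CPM in the nodose positive and 4177 and 4857 CPM in the jugular positive pools. The negative pools were at 4384 and 4593 CPM, between the jugular positive pools, so the summed level did not go with Trpv1 status. Nefh, the heavy neurofilament, was at 104 and 226 CPM in the nodose positive, 307 and 395 CPM in the jugular positive and 684 and 574 CPM in the negative pools, a log2 fold change of -1.35 ± 0.48 (SE). Nefm, the medium neurofilament, is counted among the 6 but differed little, by -0.50 on the log2 scale. It was at 1050 and 1064 CPM in the jugular positive and 1128 and 1067 CPM in the negative pools. Cntnap2, which encodes the juxtaparanodal protein Caspr2, was at 109 and 192 CPM in the negative and 7.87 to 57.7 CPM in the positive pools. Vamp1 was at 98.6 and 152 CPM in the negative and 0.197 to 71.3 CPM in the positive pools. Spp1, also among the 6, rested mainly on 1 negative pool, with 32.9 CPM in one and 0.113 CPM in the other. So did Runx3, which belongs to the list of sensory transcription factors, with 22.4 and 0.881 CPM. Among 12 channels of fast-firing fibres, 3 were higher in both negative pools, including the pacemaker channel Hcn2 (60.8 and 65.2 CPM against 10.9 to 57.2 CPM). That list summed to 249.4 and 272 CPM in the nodose positive and 754 and 589.7 CPM in the jugular positive pools. The negative pools were at 541.2 and 618.2 CPM, so only the nodose positive pools were both below them.

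Dbh and Slc18a2, which handle catecholamines, were higher in both negative pools, and Ddc was higher in 1 of them. Dbh, which encodes the enzyme that makes noradrenaline, was at 22.5 and 52.4 CPM in the negative pools and at most 0.033 CPM in the positive ones. Slc18a2, the vesicular monoamine transporter, was at 23.3 and 31.5 CPM in the negative and 0 to 9.91 CPM in the positive pools, and Ddc, the decarboxylase, was at 82.5 and 25.6 CPM in the negative and 0 to 25.6 CPM in the positive pools, where the lowest negative and the highest positive pool were equal to 3 digits. The list of sympathetic neuron markers to which they belong had 5 tested members, and Th, the gene of the enzyme that starts catecholamine synthesis, was higher in all positive pools. The summed level of this list was 59.3 to 179.7 CPM in the positive and 158.5 and 175 CPM in the negative pools, and the part of sympathetic neurons in these values was not tested.

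**Figure D2:**
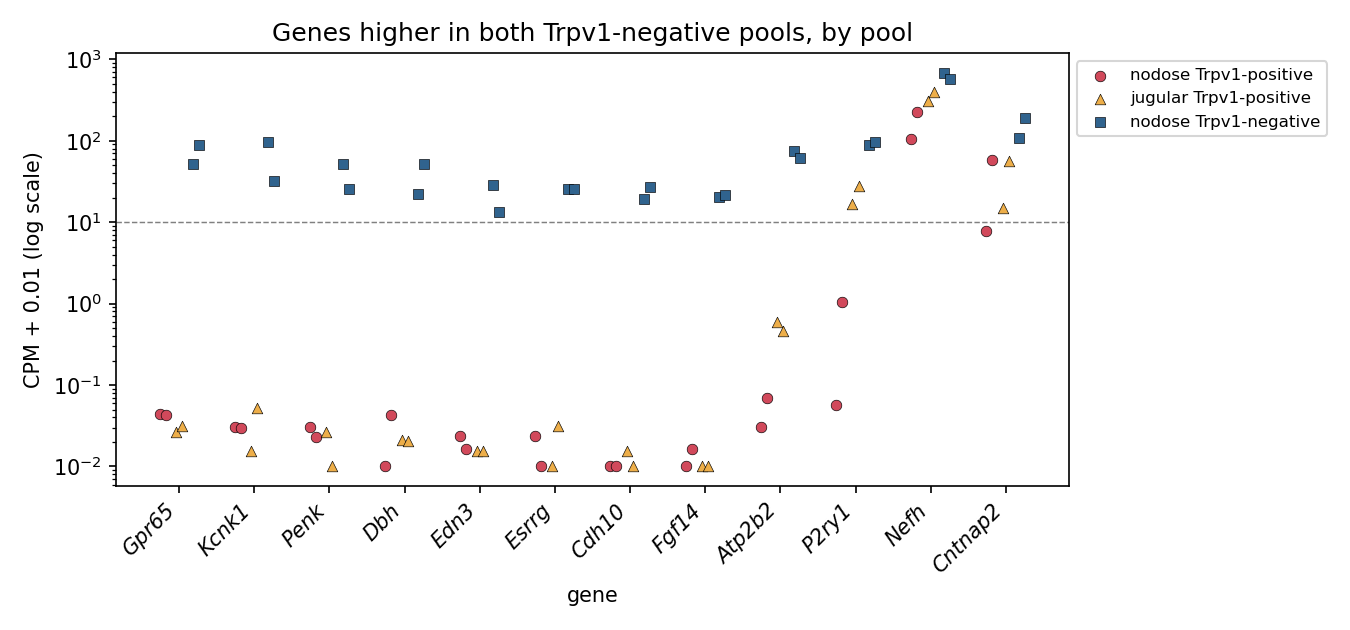
CPM plus 0.01 on a log axis for 12 genes higher in both Trpv1-negative pools, with red circles for nodose Trpv1-positive, yellow triangles for jugular Trpv1-positive and blue squares for nodose Trpv1-negative pools, and the dashed line at 10 CPM. Gpr65, Kcnk1, Penk, Dbh, Edn3, Esrrg, Cdh10 and Fgf14 are near the floor in all 4 positive pools, P2ry1 is near the floor in 1 nodose positive pool and higher in the other 3, and Nefh and Cntnap2 are above 5 CPM but lower in all 4.

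Many genes that separated Trpv1-positive nodose or jugular neurons from the negative pools did so in 1 ganglion only, and so did not go with Trpv1 status. Tac1, the substance P precursor, was at 1106 and 875 CPM in the jugular positive pools but at 1.01 and 0.257 CPM in the nodose positive and 0.280 and 0.265 CPM in the negative pools. Prdm12, a factor needed for nociceptors, was at 177 and 193 CPM in the jugular and at most 0.252 CPM in the other pools. The itch receptor gene Mrgprd was at 74.7 and 124 CPM in the jugular and at most 0.0408 CPM elsewhere. Conversely Vip (118 and 136 CPM) and Uts2b (334 and 509 CPM) were nodose positive signals, at most 0.0886 CPM in all other pools. The transcription factor genes Hoxb5 and Etv1 were at 189.9 to 429 CPM in both nodose groups and at most 0.148 CPM in the jugular pools, so they followed the ganglion in these 6 pools. In the jugular capsaicin-selected pools Etv1 was at 0.326 and 94.6 CPM. Piezo2, the mechanotransduction channel, was at 56.7 and 104 CPM in the jugular positive, 13.7 and 10.4 CPM in the negative and at most 0.0264 CPM in the nodose positive pools. Cntn1 and Cpne6 also had the nodose positive pools at the bottom. In the nodose capsaicin-selected pools, however, Cntn1 was at 82.3 and 274 CPM, while Cpne6 was at 0.0744 and 0.245 CPM and Piezo2 at 0.0372 and 0.163 CPM. The contrasts of nodose and of jugular positive pools share the negative pools, and their own values are shown side by side in the plot of the contrasts.

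**Figure D3:**
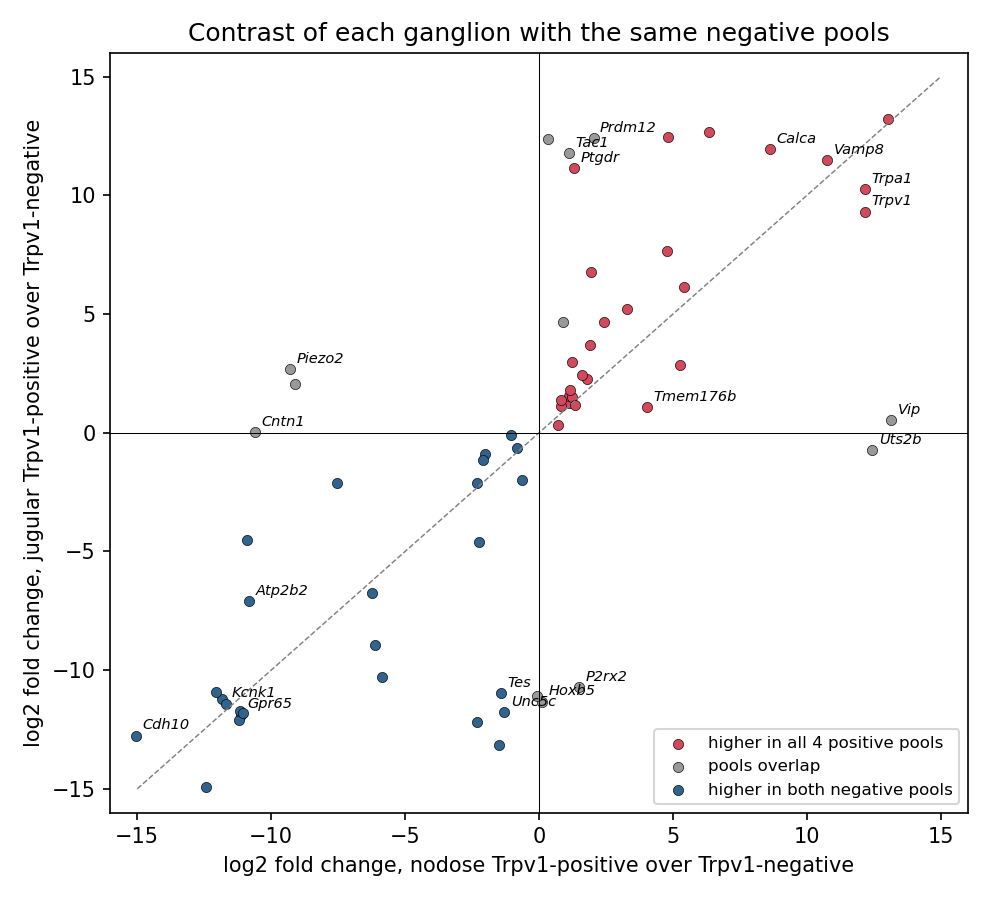
Log2 fold change against the 2 negative pools in the fit with 3 groups, for nodose positive pools (x axis) and jugular positive pools (y axis), for the genes examined by name; the dashed line marks equal values. Red points were higher in all 4 positive pools, blue points higher in both negative pools and grey points overlapped, and the grey points lie near an axis or in the other quadrants, such as Tac1 and Prdm12 near the y axis and Vip and Uts2b near the x axis.

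The 18 lists of genes were compared with the shares over all genes tested, 8.54% higher in all positive and 8.77% higher in both negative pools. On the positive side the TRP channels other than Trpv1 (4 of 11), sensory neuropeptides (4 of 12), immediate early and injury genes (2 of 9), pan-neuronal markers (2 of 10), growth factor receptors (2 of 12), C-fibre sodium channels (1 of 5) and sympathetic markers (1 of 5) were above that share. On the negative side the large-neuron markers (6 of 13), sympathetic markers (3 of 5, Ddc included), purinergic receptors (2 of 7), fast-firing channels (3 of 12), opioid, cannabinoid and GABA-B receptors (1 of 4), vagal subtype receptors (1 of 5) and mechanosensory channels (1 of 9, P2ry1, which is also a purinergic receptor) were. In a list of 4 or 5 genes 1 member is enough for this. With group means below the floor set to it, the median log2 ratio of means was 1.25 for the TRP channels other than Trpv1, 3.02 for the neuropeptides and -1.46 for the large-neuron markers, against 0.211 over all genes. Of the 12 neuropeptides 1, Penk, was on the negative side and 7 overlapped, among them Bdnf, with 55.2 to 119 CPM in the positive and 44.4 and 119 CPM in the negative pools. Among 12 growth factor receptors, 2 did not overlap, Gfra3 and Gfra4, coreceptors for artemin and persephin, and none was higher in both negative pools. Gfra4 was at 47.4 to 99.5 CPM in the positive and 41.1 and 11.6 CPM in the negative pools. Gfra3 was a jugular signal, at 44.2 and 64.5 CPM there, 0.0204 and 1.38 CPM in the nodose positive and 0.0148 and 0 CPM in the negative pools, and both the lower nodose positive pool and the first negative pool held 3 counts, the floor. Among 24 receptors for inflammatory mediators, 2 were higher in all positive pools and 1 in both negative pools. The adenosine A1 receptor gene Adora1 was at 61.3 and 92.8 CPM in the nodose, 161 and 68.5 CPM in the jugular and 33.2 and 30.8 CPM in the negative pools. Ptgdr, a prostaglandin D2 receptor, was near the floor outside the jugular pools. The prostaglandin receptor gene Ptger4 was on the negative side, at 18.9 and 60.6 CPM against 0.00528 to 17.0 CPM. Of 7 purinergic receptors tested, 2 (P2ry1 and P2rx3) were on the negative side. P2rx3 was at 283 and 335 CPM in the negative and 103 to 274 CPM in the positive pools. Of the 12 calcium channel genes, 1 was higher in all positive pools and 1 in both negative pools, close to the shares over all genes. The latter, Cacna1e, was at 9.08 and 5.82 CPM against at most 0.265 CPM, and so did not reach 10 CPM. Of the 10 pan-neuronal genes, Stmn2 and Uchl1 were higher in all positive pools, Uchl1 by 0.53 on the log2 scale, while under TMM scaling Stmn2 overlapped and Snap25 and Syt1 were higher in both negative pools.

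**Figure D4:**
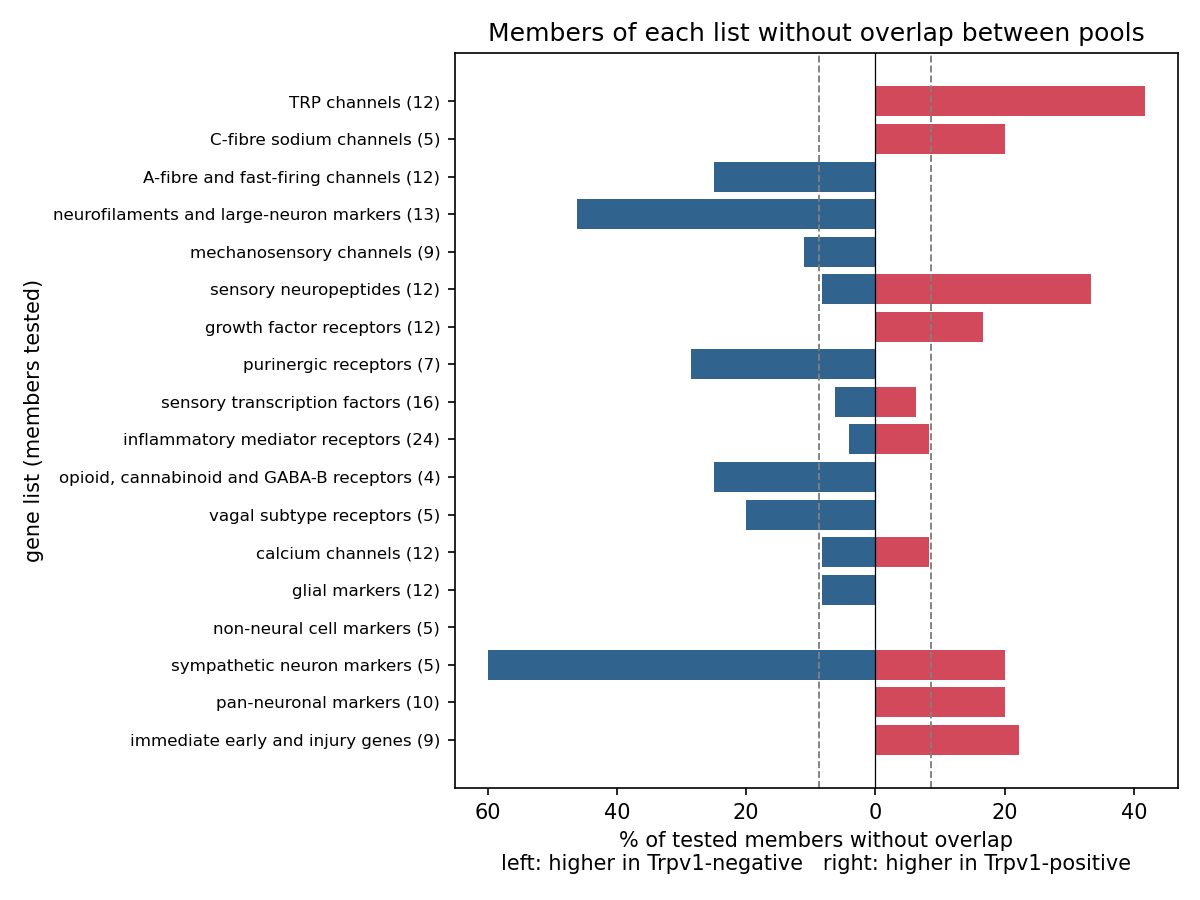
Percent of the tested members of each of 18 gene lists (number in brackets) that did not overlap between positive and negative pools, to the right where higher in all 4 positive pools and to the left where higher in both negative pools. The dashed lines are the shares over all 12314 genes tested, 8.54% and 8.77%, and with 4 to 24 members a list each member moves a bar by several percent.

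The capsaicin-selected pools, which were not part of the comparison, were sequenced to 17666710 to 30810863 counts and scaled on their own, so their levels are given beside the others without a test. Of the 7137 genes that reached 10 CPM, 31.4% did so in all 4 capsaicin-selected pools and 13.4% in none of them. Of 129 such genes that were higher in all positive pools by at least 2-fold, 24 (18.6%) reached 10 CPM in all 4 capsaicin-selected pools and 18 (14%) in none. Of 191 such genes that were higher in both negative pools by at least 2-fold, 10 (5.24%) did so in all 4 and 68 (35.6%) in none. Genes of these 2 sets could reach the limit through the group in which they were picked as higher. Their shares are therefore partly set by the selection and are no test against those of all genes. The median level in the group where each gene was higher was 40.3 CPM for the first set and 31.2 CPM for the second, against 57.4 CPM for all genes at the limit. Trpv1 was at 190 and 173 CPM in the nodose and 206 and 66.4 CPM in the jugular capsaicin-selected pools, and Stmn1, Fxyd2 and Sncg were above 500 CPM in each of them. Vamp8 was at 41.0 and 25.9 CPM in the jugular but at 0 and 0.0816 CPM in the nodose capsaicin-selected pools, Aqp1 was at 23.0 CPM in 1 jugular pool and at most 0.118 CPM in the other 3, and Gfra4 was at 0 in all 4. Calca and Calcb were each low in 1 nodose capsaicin-selected pool, Calca at 1.63 CPM and Calcb at 1.60 CPM. Trpa1 was at 0.112 CPM in one nodose pool and 375 CPM in the other. Gpr65, P2ry1, Kcnk1, Edn3, Dbh and Cdh10 were at 0 in all 4. Other genes of the negative side were present. Slc18a2 was at 291 and 429 CPM in the nodose and 32.2 and 41.4 CPM in the jugular capsaicin-selected pools, all above its Trpv1-negative pools. Fgf14 was at 72.0 and 390 CPM in the nodose capsaicin-selected pools and at 0 and 0.0066 CPM in the nodose Trpv1-positive pools. The second nodose capsaicin-selected pool held Spp1 at 192 CPM and Cacna1e at 99.8 CPM, and Penk and Esrrg had 25.0 and 14.5 CPM in 1 jugular pool.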

How the data were processed

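RNA of hand-picked, pooled vagal neurons was copied and amplified for very small inputs, then sequenced. Per the labels and the submitters' processing notes, the authors aligned the reads to mm10 with TopHat2 2.0.9 and Bowtie2 2.1.0.0 and counted them with HTSeq; the annotation and strand setting are not given in the sources used here, so overlapping genes on opposite strands cannot be separated. The deposited values are raw counts per gene symbol, 1 file per sample, with no normalization. In 27 rows the symbol reads like a date, and these were kept apart.

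CPM were obtained from the counts with the size factors of DESeq2, set to the geometric mean of the totals of the 6 pools. Genes were tested with edgeR 4.0.16 in R 4.3.3 (TMM, filterByExpr, quasi-likelihood F test, Benjamini-Hochberg adjustment, prior count 0.125), with Trpv1 status as the only term, and called where the adjusted p was not above 0.1, the change was 2-fold or more, and both pools of a group had 10 CPM. SE is the size of the log2 fold change over the square root of F. DESeq2 1.42.0 and an edgeR fit with 3 groups were alternatives. Scripts were tested on simulated data. The pools differed between replicates by far more than counting error (chi-square per degree of freedom of 2341 to 3040), so none was a copy of another. The SE includes the spread between pools, while the floors cover counting error only. Gene positions are from GENCODE vM21 on GRCm38, and upstream sequences from RefSeq.

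The genes and lists were chosen with earlier results of these data known. The rule was to name Trpv1, then genes called without overlap and called or expressed members of 18 lists, and since edgeR called no gene with 1 term, the others named were chosen from the 2 alternatives and from the lists after their values were seen. The settings tried were the size factors of DESeq2, no filter, DESeq2, 3 groups, a replicate block, Rn45s left out, a limit of 1 CPM and each pool left out. 65 genes were examined by name.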

Additional observations from a re-analysis of the deposited data

Results flagged for a closer look

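Of the 65 genes examined by name, 8 had 1 positive pool far from the other 3 on the scale of log2(CPM + 1), by Dixon's ratio of the gap to the range. Chance gives this in about 1 in 20 groups of samples. The ratio was 0.841 for Edn3 and 0.9 for Vamp1, where the first nodose Trpv1-positive pool stood apart, and 0.994 for Cacna1e, also in that pool. The second nodose Trpv1-positive pool stood apart for Fgf14 (1), Ptger4 (0.911) and Sox10 (0.878), and the first jugular Trpv1-positive pool for Cdh10 (1) and Oprl1 (0.98). For Edn3, Cdh10, Fgf14, Cacna1e and Sox10 the pool that stood apart was itself at most 0.265 CPM. It held 2 counts for Edn3 and 1 count for each of Cdh10 and Fgf14, below the floor of 3. The chance rate of 1 in 20 need not hold for such counts, and these 3 flags carry no weight. Vamp1 was at 0.197 CPM in the first nodose pool and 47.0 to 71.3 CPM in the others, Ptger4 at 17.0 CPM in the second nodose pool and at most 0.299 CPM in the others, and Oprl1 at 1.71 CPM in the first jugular pool.

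The nodose and jugular Trpv1-positive pools differed from each other at an adjusted p of at most 0.1 (edgeR with 3 groups) for 14 of these genes. The jugular pools were higher for Calca (adjusted p = 0.00948), Tac1 (0.00948), Prdm12 (0.0725), S100a6 (0.0399), Piezo2 (0.0986), Cpne6 (0.00457) and Cntn1 (0.0137). The nodose pools were higher for Tmem176b (0.00948), P2rx2 (0.00598), Uts2b (0.00457), Tes (0.0533), Unc5c (0.0481), Hoxb5 (0.00118) and Etv1 (0.00444).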

How the results depend on the processing

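The number of genes called with 1 term was 0 in both directions with the size factors of DESeq2, without a filter, with the replicate block, without Rn45s, with a limit of 1 CPM and without each of the 6 pools in turn, so also 0 without overlap and 0 that differed between the ganglia. DESeq2 called 298 genes higher in the positive and 83 higher in the negative pools, 194 and 83 of them without overlap, and 3 of these differed between the ganglia. The fit with 3 groups called 12 and 14, of which 9 and 3 did not overlap. The cause of these differences was not tested. The counts of genes without overlap and their alternatives were chosen after seeing the data. The 1052 genes without overlap higher in the positive pools became 925 with TMM and 734 when each pool was scaled by its median, and the 1080 higher in the negative pools became 1179 and 1430. Leaving out 1 pool gave 1406 to 2272 and 1492 to 2395, where fewer pools make it easier not to overlap, and the largest counts came without either negative pool: 2272 and 2395 without the first and 2028 and 2161 without the second. Without the second nodose Trpv1-positive pool 1650 genes were on the negative side. Among 65 named genes 62 kept their direction under all alternatives. In the fit with 3 groups Piezo2 (-3.30), P2rx2 (-4.61) and Cpne6 (-3.52) turned negative, since that fit weighs each ganglion's mean on the log scale, and P2rx2 was -0.37 without the first nodose Trpv1-positive pool and -0.0045 without the first negative pool, with a highest value of 1.26 without the second negative pool. The median log2 fold change of all genes was 0.136, and 0.211 with the size factors of DESeq2, 0.309 in DESeq2 and -0.195 with 3 groups. The replicate numbers showed no sign of pairing the pools, as the deviations of same-numbered pools correlated at -0.00575 to 0.0219. The replicate block left 0 calls, the same number as without it, so it cannot decide this. Whether same-numbered pools share a mouse is not known. Replicate pools correlated at 0.806 to 0.855 in log2(CPM + 1), and at this depth 3 counts, taken as the least that can be told from 0, were 0.0148 to 0.0204 CPM.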

Other observations

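Genes of the ribosome stood out among the transcripts that were higher in all positive pools, as a family picked by symbol after its values were seen. Of 76 genes of cytosolic ribosomal proteins tested, 61 were higher in all positive pools and 0 in both negative pools, against 8.54% of all genes tested on the positive side. Their median log2 fold change was 0.71, which is 0.57 above the median of all genes, and 44 had an unadjusted p under 0.05 in edgeR, all in the same direction. Their summed level was 50729 and 47260 CPM in the nodose positive, 49290 and 42413 CPM in the jugular positive and 31321 and 23612 CPM in the negative pools, so the groups did not overlap. As a share of the summed CPM of each pool the gap was smaller, at 4.82% and 4.66%, 5.41% and 4.79%, and 4.03% and 3.18% in the same order. The number higher in all positive pools was 56 with TMM, 61 without Rn45s, 46 when each pool was scaled by its median level, and 60 to 73 with any 1 pool left out. Reads of these genes can be shared with near-identical pseudogene copies. Genes of mitochondrial ribosomal proteins (19 of 77), of the NADH dehydrogenase (19 of 43) and of the proteasome (14 of 49) were also higher in all positive pools and 0 of them in both negative pools, while the mitochondrial ATP synthase had 2 of 17.

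The genes higher in all positive pools had shorter transcripts, with a median length of the longest annotated transcript of 2093 bases over 1000 of the 1052 genes, against 3382 bases over 11827 of all 12314 genes and 3991 bases over 1044 of the 1080 genes higher in both negative pools. Their median level was 76.5 CPM, against 18.6 CPM for all genes and 9.83 CPM for those higher in the negative pools. Each level was a mean over the positive and negative pools together. The positive pools were more numerous, so this mean lowered genes of the negative side more, and part of the gap is built in. Taken in the group where each gene was higher, the medians were 40.3 CPM (positive side) and 31.2 CPM (negative side). They cover only genes with a gap of at least 2-fold that reached 10 CPM. Ribosomal protein genes are short and abundant, and pools of 30 and 15 cells were amplified, so cell number per pool goes with Trpv1 status in each of these values, and its part in them was not tested.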
